A study of Mus musculus with 9 samples.

Results

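The Zfp36 genes and the Btg and Tob genes encode small families of proteins that shorten the life of messenger RNA. The 8 genes described here, Zfp36, Zfp36l1, Zfp36l2, Btg1, Btg2, Btg3, Tob1 and Tob2, were taken by name from the 37980 genes of the expression table, and all 8 had values high enough to be tested. The samples were myeloid progenitors (MPs, Lin-c-kit+Sca1-) from the bone marrow of transplanted C57BL/6 mice, with 4 NA MP samples and 5 WT MP samples of 100000 cells each. NA stands for the NUP98-HOXA10hd fusion gene, expressed from the Rosa26 locus in NA LSL/+; Vav-Cre mice, where Cre is driven in blood cells. All recipients were irradiated adult mice given sorted multipotent progenitors (MPPs) with helper marrow cells, so the host marrow held cells of more than 1 origin. The sort took Tdtomato+ cells where NA MPPs had been given and CD45.2+ cells where WT MPPs had been given, at 3 months by the sample labels and later by the study's methods. Elsewhere the study describes its recipients as CD45.2+ as well and marks donor-derived WT blood cells as CD45.1+, so a donor, helper or host origin of the WT MPs cannot be told apart. Whether a sample is a single mouse is not stated, and p-values therefore measure only the spread between these samples.

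As background, Zfp36 proteins are zinc finger proteins that bind AU-rich stretches in the 3' UTR of a messenger RNA and bring the CCR4-NOT deadenylase to it, after which the poly(A) tail is shortened and the RNA decays. Btg and Tob proteins do not read a sequence of their own in the same manner. They bind the deadenylase subunits Cnot7 and Cnot8 and the poly(A) binding protein and speed the shortening of tails more generally. Both families are known as brakes on growth and inflammation in blood cells, and Zfp36, Btg2 and several relatives are themselves induced quickly when cells are stimulated.

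The Zfp36 genes carry in their own RNA the motif that Zfp36 proteins bind. The nonamer TTATTTATT occurred once in the longest annotated 3' UTR of Zfp36, Zfp36l1 and Zfp36l2, and in 0 copies in those of Btg1, Btg2, Btg3, Tob1 and Tob2 (GENCODE M21, GRCm38). The 3 sites are shown because they set the Zfp36 genes apart from the Btg and Tob genes by sequence, with the nonamer in capitals and each read on the minus strand, 5′ to 3′.
Zfp36, chr7:28376951-28376979: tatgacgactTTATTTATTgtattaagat
Zfp36l1, chr12:80108167-80108195: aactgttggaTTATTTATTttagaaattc
Zfp36l2, chr17:84184914-84184942: actatttaacTTATTTATTatcttgtgaa
Of the 11038 tested genes with an annotated 3' UTR, 887 held the nonamer at least once. A shorter core of the motif, TATTTAT, occurred 3 times in each of the 3 Zfp36 genes, once in Btg2 and Tob2, and 0 times in Btg1, Btg3 and Tob1.

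The windows before the start sites differed from gene to gene. RefSeq (GRCm38.p6) gave a window from 250 bases before to 50 after the start for 7 of the 8 genes. It was searched on both strands for the letters TGACGTCA (the cyclic AMP response element, CRE), TGANTCA (AP-1), GCGTGGGCG (an EGR site), TATAAA (the TATA box), CCAAT (the CCAAT box) and TGATTNAT (a joint Pbx-Hox site), and for the CArG box of serum response factor. The matches to the CArG box, the CRE and AP-1 are shown, as each of these motifs was found in only 1 of the 7 genes, with the match in capitals and the minus strand read 5′ to 3′.
Zfp36, CArG box, chr7:28379267-28379296: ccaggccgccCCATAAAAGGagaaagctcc
Btg2, CRE, chr1:134079303-134079332: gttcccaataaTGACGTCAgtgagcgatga
Zfp36l1, AP-1, chr12:80113125-80113154: tgaccgcatggcTGATTCAacctcagtgtc
The CArG box lay at positions -58 to -49 from the start of Zfp36, the CRE at -166 to -159 from that of Btg2 and the AP-1 match at -129 to -123 from that of Zfp36l1. The AP-1 letters searched allow any base at the centre, which is T in this match. Over 32851 windows of the same length, 1.63% held a CArG box, 1.79% the CRE and 7.81% the AP-1 letters. TATAAA was found in the windows of Btg1, Tob1 and Zfp36l1, against 13.6% of all windows, and CCAAT in those of Btg1, Btg2, Btg3, Tob1 and Zfp36l1, against 37.4%, where in Zfp36l1 it overlaps TATAAA. The EGR and Pbx-Hox letters were in no window of the 7 genes, against 0.612% and 3.22% of all windows. The window of Zfp36 lies in the first exon of a longer annotated transcript of the gene. A match describes the letters and not a bound site.

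Values are normalised counts, that is RSEM expected counts after division by a constant of each sample, a step inferred from the deposited values themselves. Sample totals were 6602851 to 6734284 normalised counts, and the size of the smallest common step in each sample placed the depth before division at 5560000 to 8110000 reads in NA MPs and 6140000 to 7750000 in WT MPs. At this depth 3 reads correspond to 2.48 to 3.60 normalised counts, a floor that covers counting error only. As a check of the labels, Nup98, which gives the fusion its first part, had a mean of 956 ± 81.8 (SD, n = 4) normalised counts with the fusion and 599 ± 29.9 (SD, n = 5) without it. Hoxa10, which gives the homeodomain, was at 129 ± 17.7 (SD, n = 4) against 8.05 ± 2.57 (SD, n = 5). The myeloid progenitor markers Kit, Mpo, Elane and others were detected in every sample, with summed values of 10 markers, mostly Mpo, of 167000 to 183000 in NA MPs and 164000 to 170000 in WT MPs. Of the 10, 3 were higher in NA MPs (Prtn3, Ctsg and Cd34, log2 fold changes of 0.19, 0.17 and 0.12) and 2 were lower (Fcgr3 and Myb, -0.57 and -0.09).

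Of the 8 genes, 7 were higher in NA MPs at an adjusted p under 0.05 from limma, 0 were lower, and Btg3 did not pass. Over all 11987 tested genes 34.3% were called, 16.9% as higher and 17.3% as lower. The median log2 fold change of the 8 genes was 0.76 and that of all tested genes -0.01. Zfp36, Btg2 and Tob1 rose more than 2-fold, which 2.56% of the tested genes did. In 7 of the 8 genes every NA MP sample lay above every WT MP sample, against 13.5% of the tested genes. In bulk RNA of this kind, more cells of a type that expresses a gene and more RNA of it in each cell cannot be told apart.

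**Figure D1:**
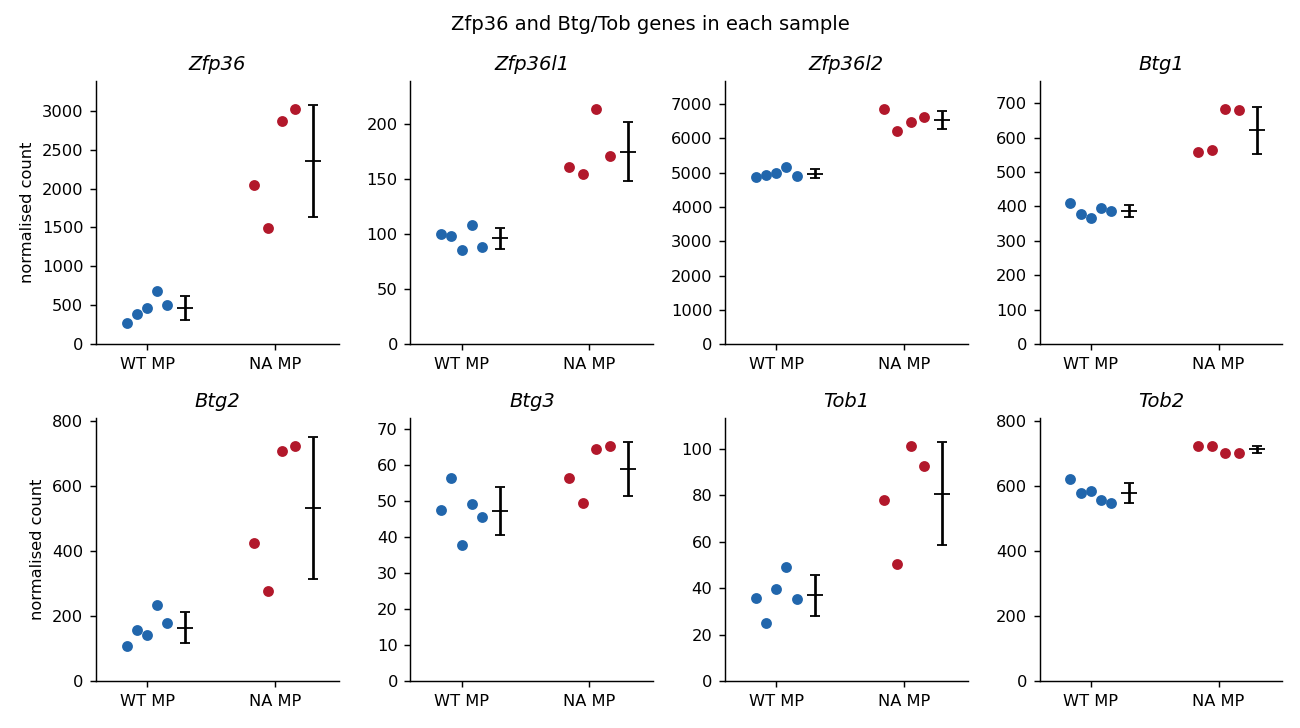
Normalised counts (y axis, from 0) of the 8 genes in the 5 WT MP samples (blue) and 4 NA MP samples (red), with the mean and SD of each group beside the points. The groups overlap only in Btg3, and the NA MP points of Zfp36 run from 1490 to 3019.

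Zfp36 (ENSMUSG00000044786, chr7:28376784-28380253), which encodes tristetraprolin, the founding member of its family and a brake on Tnf, showed the largest difference. Its normalised counts in NA MP replicates 1 to 4 were 2049, 1490, 2869 and 3019, and in WT MP replicates 1 to 5 they were 272, 385, 469.7, 686 and 499. The lowest NA MP sample, replicate 2, was 2.17 times the highest WT MP sample, replicate 4. The log2 fold change was 2.36 (SE 0.32, 95% interval 1.61 to 3.11), a 5.12-fold rise with an adjusted p of 0.000856 from limma. An exact two-sided permutation test gave p = 0.0159, the smallest p that 126 ways to choose 4 of 9 samples allow, and each of the other 6 genes whose groups did not overlap reached the same p. The spread was wide, with a coefficient of variation of 30.5% in NA MPs and 33.1% in WT MPs, where counting alone would give 2.06% and 4.58%.

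Zfp36l1 (ENSMUSG00000021127, chr12:80107754-80113013), a relative that is needed in lymphocyte development, was expressed at a low level. In NA MPs its normalised counts were 161, 155, 214 and 171, and in WT MPs they were 100.4, 98.4, 85.6, 108 and 88.5. The groups were apart, with NA MP replicate 3 highest. On the log2 scale the rise was 0.85 (SE 0.10, 95% interval 0.66 to 1.04, adjusted p = 1.06e-09 from limma). Of its exon bases, 1672 are shared with Gm26669 on the other strand, which has no entry among the 37980 genes.

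Zfp36l2 (ENSMUSG00000045817, chr17:84183931-84187947), the relative known for its part in stem and progenitor cells of the blood, was the most abundant of the 3 and the steadiest. Its normalised counts were 6852, 6226, 6492 and 6623 in NA MPs and 4865, 4946, 4986, 5176 and 4914 in WT MPs. All NA MP samples were higher, and the coefficients of variation were only 3.99% and 2.40%. The rise was 1.31-fold, with a log2 fold change of 0.40 (SE 0.03, 95% interval 0.34 to 0.45, adjusted p = 1.85e-16 from limma). The smallest log2 fold change of the 3 Zfp36 genes thus had the lowest adjusted p, and the largest had the highest.

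Levels of different genes were compared per kilobase of exon. On that scale the WT MP means were 1410 ± 33.9 (SD, n = 5) for Zfp36l2, 133 ± 44.1 for Zfp36 and 32.2 ± 3.06 for Zfp36l1, and the order was the same in NA MPs with 1860 ± 74.0 (SD, n = 4), 679 ± 207 and 58.6 ± 8.91. No sample of 1 gene reached the range of the next in either group. Zfp36l2 held 89.6% ± 2.31 of the summed level of the family in WT MPs and 71.9% ± 5.82 in NA MPs, and Zfp36 held 8.37% ± 2.37 and 25.8% ± 5.78. The share of Zfp36l1 was 2.04% ± 0.182 in WT MPs and 2.26% ± 0.262 in NA MPs, where the samples overlapped. The level of Zfp36l2 over that of Zfp36 ran from 7.41 to 17.6 in WT MPs and from 2.16 to 4.11 in NA MPs. The mean of this ratio was 11.5 in WT MPs and 2.94 in NA MPs. With the longest transcript in place of all exons it was 9.28 and 2.37, so the shares also depend on the length used. The summed level of the 3 genes was 1580 ± 77.3 per kilobase in WT MPs and 2590 ± 249 in NA MPs.

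**Figure D2:**
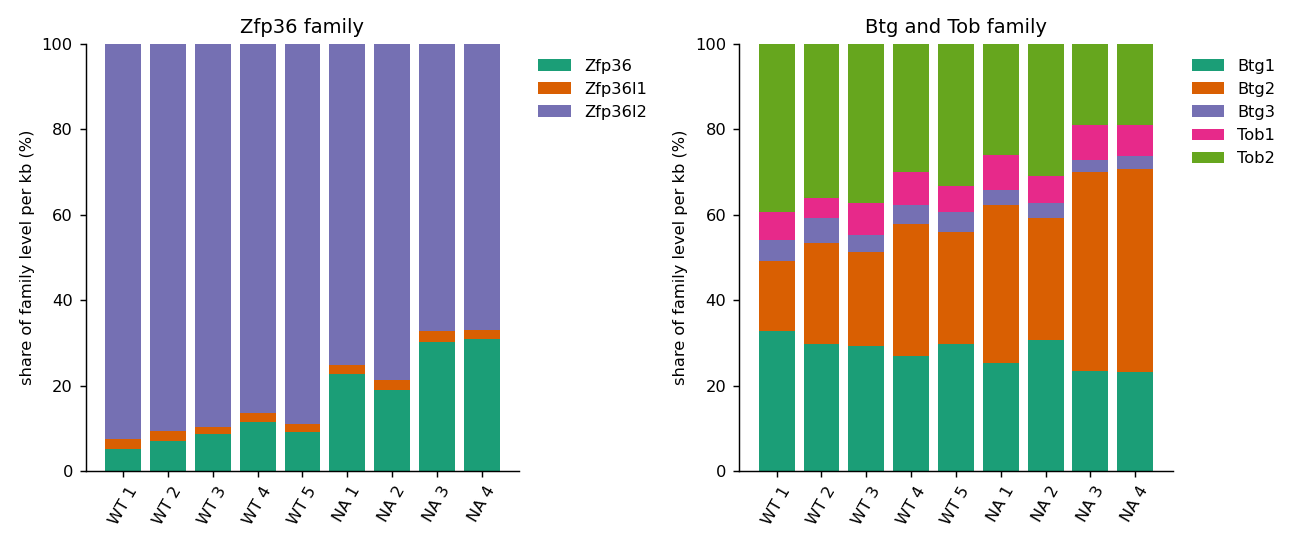
Share (%) of each gene in the summed level per kilobase of its family, 1 bar a sample, with WT MP samples first and NA MP samples after them. In the left panel the Zfp36 part grows from between 5.26% and 11.6% in WT MPs to between 19.1% and 31.0% in NA MPs, and in the right panel Btg2 reaches 28.7% to 47.6% in NA MPs.

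Btg1 and Btg2 are close relatives that slow cell division. Btg1 (ENSMUSG00000036478, chr10:96617006-96622809) had normalised counts of 558, 565, 682.5 and 679 in NA MPs and 411, 378, 366, 394 and 388 in WT MPs. NA MP replicates 3 and 4 were the high samples and the groups did not overlap. It rose by a log2 fold change of 0.67 (SE 0.06, 95% interval 0.56 to 0.79, adjusted p = 3.14e-12 from limma).

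Btg2 (ENSMUSG00000020423, chr1:134075170-134079120), also known as a target of p53, changed more and varied more. Its normalised counts were 425, 276, 707 and 724 in NA MPs and 107, 157, 143, 234 and 179 in WT MPs. The lowest NA MP sample, replicate 2, was only 1.18 times the highest WT MP sample, replicate 4. The log2 fold change was 1.64 (SE 0.35, 95% interval 0.81 to 2.47), a 3.11-fold rise with an adjusted p of 0.00927 from limma. The coefficient of variation of Btg2 was 41.2% in NA MPs, the widest of the 8 genes, and 28.8% in WT MPs.

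Btg3 (ENSMUSG00000022863, chr16:78332637-78377192) was low and the groups overlapped. Its normalised counts were 56.4, 49.5, 64.6 and 65.3 in NA MPs and 47.5, 56.5, 37.7, 49.0 and 45.7 in WT MPs, so that WT MP replicate 2 lay above NA MP replicates 1 and 2. The estimate was a log2 fold change of 0.32 (95% interval 0.04 to 0.60, adjusted p = 0.075 from limma), and counting alone would give coefficients of variation of 13.1% and 14.3%, near the 12.7% and 14.3% measured. Left out in turn, NA MP replicate 2 gave 0.40 (limma, adjusted p = 0.0385) and WT MP replicate 2 gave 0.38 (limma, adjusted p = 0.0443), both past the threshold. Its exons share 695 bases with Cxadr on the other strand, which held from 1.11 to 18.8 normalised counts and was lower in NA MPs (log2 fold change -1.91), and whether reads were counted by strand is not stated.

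Tob1 and Tob2 carry in addition the motifs by which Tob proteins bind the poly(A) binding protein. Tob1 (ENSMUSG00000037573, chr11:94211454-94215495) had normalised counts of 78.03, 50.55, 101 and 92.6 in NA MPs and 35.6, 24.8, 39.7, 49.0 and 35.4 in WT MPs. NA MP replicate 2 and WT MP replicate 4 nearly met, with a ratio of 1.03. The log2 fold change was 1.09 (SE 0.19, 95% interval 0.69 to 1.49, adjusted p = 0.000133 from limma).

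Tob2 (ENSMUSG00000048546, chr15:81848272-81858796) changed little but evenly. Its normalised counts were 723.5, 723, 703 and 701 in NA MPs and 623, 580.1, 586, 556 and 547 in WT MPs. The 4 NA MP samples varied by 1.70%, less than the 3.78% that counting alone would give. This was a log2 fold change of 0.30 (SE 0.04, 95% interval 0.21 to 0.39, adjusted p = 4.46e-07 from limma).

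**Figure D3:**
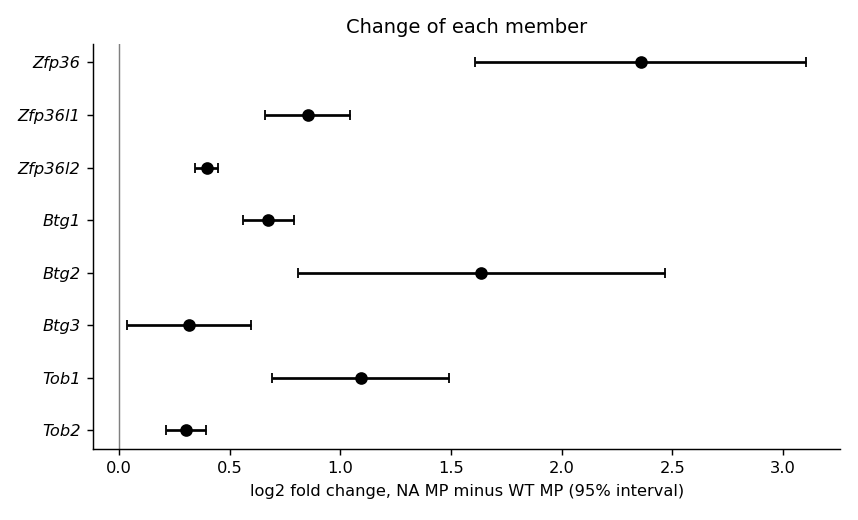
Log2 fold change (x axis, NA MP minus WT MP) of each of the 8 genes with its 95% interval from limma. Zfp36 (2.36), Btg2 (1.64) and Tob1 (1.09) lie above 1 with wide intervals, and Zfp36l2 (0.40) and Tob2 (0.30) have narrow ones.

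Per kilobase of exon, Tob2, Btg1 and Btg2 were the abundant genes of the second family in WT MPs, at 86.8 ± 4.47, 73.4 ± 3.23 and 59.7 ± 17.2 (SD, n = 5). The samples of Btg2 there overlapped those of both others. Tob1 (16.1 ± 3.82) and Btg3 (11.8 ± 1.68) were lower and overlapped each other. In NA MPs Btg2 had the highest mean, at 194 ± 80.0 (SD, n = 4), above Btg1 at 118 ± 13.1 and Tob2 at 107 ± 1.82, but its replicate 2 (101) lay below both in the same sample. The share of Btg2 in the summed level was 23.9% ± 5.33 in WT MPs and 40.0% ± 8.89 in NA MPs. The summed level was 248 ± 17.0 per kilobase in WT MPs and 469 ± 102 in NA MPs. The longest transcript in place of all exons put Tob2 at 139 in WT MPs and 172 in NA MPs, against 77.5 and 124 for Btg1, so that in NA MPs the order of Tob2 and Btg1 turned. Zfp36l3 and Btg4, the remaining genes of the families in the table, had 0 counts in every sample.

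The order of samples inside each group was shared by some of the genes. Among NA MPs, Zfp36, Btg2 and Btg3 were lowest in replicate 2, followed by replicates 1, 3 and 4, and Tob1 and Zfp36l1 differed from that order only in the places of replicates 3 and 4. Among WT MPs, Zfp36, Btg2 and Zfp36l2 were lowest in replicate 1 and highest in replicate 4, with other orders in between. Zfp36 and Btg2 differed there only in the places of replicates 2 and 3. Tob1 was lowest in replicate 2 and Btg3 and Zfp36l1 in replicate 3. Btg1, Tob2 and Zfp36l2 had other orders among NA MPs, though Zfp36l2 was also lowest in replicate 2. Btg1 and Tob2 were highest in replicate 1 of the WT MPs.

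Immediate early genes, which answer stimulation of a cell quickly, had a summed level in the sample order of Zfp36. Of 21 tested genes of that list 16 were higher in NA MPs, 15 of them more than 2-fold, and 0 were lower. This was 76.2% called, beside 34.3% of all tested genes. The list's median log2 fold change was 1.36, where that of all tested genes was -0.01. The summed value of its 24 genes was 13500 to 28800 normalised counts in NA MPs and 3610 to 6710 in WT MPs, lowest in NA MP replicate 2 and WT MP replicate 1 and highest in replicate 4 of each group, and its order of samples was that of Zfp36 in both groups. The mean of the 21 genes, as the difference of log2(value + 1) from its WT MP mean, was 1.42, 1.09, 2.07 and 2.14 in NA MP replicates 1 to 4, where Zfp36 was at 2.21, 1.75, 2.70 and 2.77 and Btg2 at 1.42, 0.80, 2.15 and 2.18. Fosb (log2 fold change 4.21), Klf2 (3.24) and Dusp1 (2.91) had the largest changes among the tested genes of the list, and Atf3, which was too low in NA MP replicate 1 for the test, had means of 49.0 in NA MPs and 0.40 in WT MPs. Whether the higher values of this list and those of Zfp36, Btg2 and Tob1 have a shared source was not tested.

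**Figure D4:**
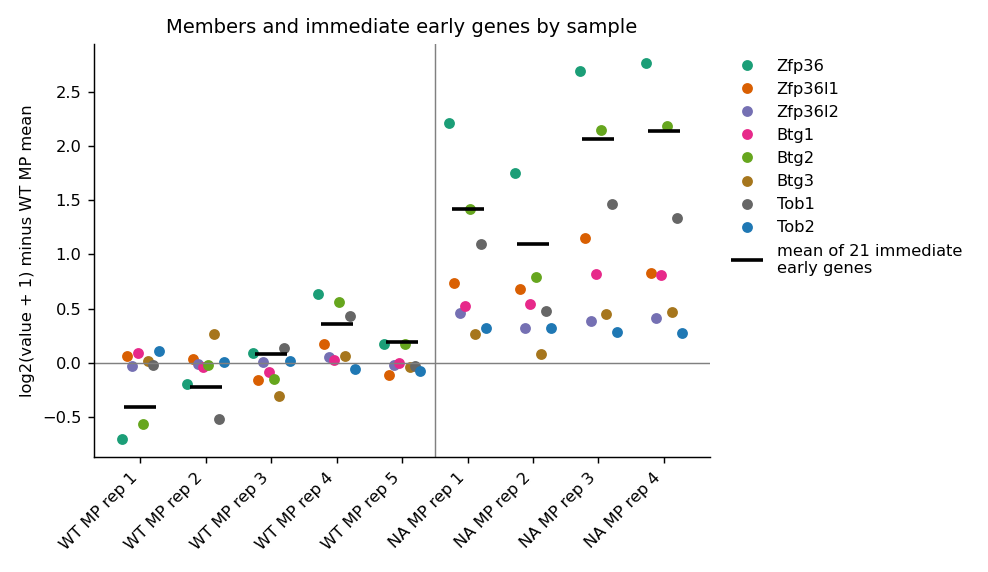
Difference of log2(value + 1) from the WT MP mean (y axis) for each of the 8 genes (points) and for the mean of 21 immediate early genes (bars) in each sample. Among NA MPs, all genes but Btg1 and Tob2 are lowest in replicate 2, as is the bar at 1.09. Zfp36l2 and Tob2 stay between 0.28 and 0.46 in NA MPs.

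The genes with the most similar profiles were found by the root mean square difference of these values over the 9 samples, among 11476 genes whose average log2 CPM (values per 1000000 of the mean total) was 1 or more. For Zfp36 they were Gm11175 (0.16), Rgs1 (0.19) and Jund (0.20), where the median over all genes was 1.64. For Btg2 they were Cd69 (0.21), Osm (0.22) and Junb (0.22), with a median of 1.20 over all genes, and for Tob1 they were Ier3 (0.18), Dusp2 (0.19) and Ppp1r15a (0.21), with 0.82. The nearest to Btg1 were Klf11 (0.08), Pim1 (0.09) and Per1 (0.10), and those to Zfp36l1 were Trim5 (0.13), Trf (0.13) and Dusp6 (0.14). In the list of immediate early genes are all 3 nearest to Tob1, 1 of those nearest to Zfp36 (Jund), 1 of those nearest to Btg2 (Junb) and 0 of those nearest to Btg1 and Zfp36l1. The difference between the groups stays in this distance. A small distance therefore reflects a similar log2 fold change as well as similar values inside a group.

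Markers of other cell types also differed between the groups. All 13 tested B lymphoid markers of 15 were higher in NA MPs (median log2 fold change 3.31). Pax5, Il7r and Vpreb3, with WT MP means of 2.67, 5.06 and 7.62, reached the level needed for testing only through their NA MP values. For these genes a higher value in NA MPs was therefore close to fixed in advance. The 15 had summed values of 1540 to 2730 normalised counts in NA MPs and 392 to 430 in WT MPs, and none was at 0 in every sample. The B lymphoid sum was lowest in NA MP replicate 1 and highest in replicates 2 and 3, an order unlike that of Zfp36 or Btg2. Of 8 tested erythroid markers 6 were lower (75% called), with sums of 3130 to 3960 against 5910 to 6790. Of 7 tested neutrophil markers 3 were higher and 1 lower (57.1% called), with sums of 3270 to 5100 against 2790 to 3230. None of 8 T and NK cell markers could be tested, with sums of 7.08 to 18.2 against 2.16 to 10 and 3 genes at 0 in every sample. Ly6a, which encodes the Sca1 antigen absent from the gate, was at 17.2 to 23.1 against 12.2 to 23.0. Of 9 tested heat shock genes, which mark no cell type, 2 were higher and 6 lower, 88.9% called beside 34.3% of all tested genes. The sums were 22100 to 23100 against 25300 to 25900, mostly from Hspa8, Hsp90aa1 and Hspd1, which were lower. Hspa1b was higher, at 18.4 against 3.77 (log2 fold change 2.16), but was tested only through its NA MP values. Dnajb1 was higher by 0.19, and Hspa1a, too low for the test, was at 8.80 against 1.44. The part of the other cell types in the values of the 8 genes was not tested.

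The decay machinery, which includes the enzymes that Zfp36, Btg and Tob proteins act with and other factors, was followed in 56 tested genes. Their log2 fold changes lay between -0.54 and 0.16. Of the 11 CCR4-NOT genes, which form the deadenylase complex, Cnot6l was higher and Cnot1 was lower, and the median of the 11 log2 fold changes was -0.04. Cnot1, the scaffold to which Zfp36 proteins bind, averaged 2564 ± 59.6 (SD, n = 4) normalised counts in NA MPs against 2807 ± 73.0 (SD, n = 5), with a log2 fold change of -0.13 (adjusted p = 0.000335 from limma). Cnot6l, a catalytic subunit, had a log2 fold change of 0.10 with an adjusted p of 0.0497 from limma, a call lost in 13 of 19 alternatives. Among these were the fits without NA MP replicate 1, 3 or 4 and without WT MP replicate 1, 2, 3 or 4, with a highest adjusted p of 0.138. Cnot7 and Cnot8, the subunits that Btg and Tob proteins hold, had log2 fold changes of -0.04 and 0.01 (adjusted p = 0.534 and 0.889 from limma).

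Of 9 further deadenylases and poly(A) binding genes 4 were higher and 1 lower, 55.6% called beside 34.3% of all tested genes. Pan3, a partner of the Pan2 deadenylase, had a log2 fold change of 0.16, Noct 0.15 and the poly(A) binding protein gene Pabpc4 -0.18, and Pabpc1, to which Tob proteins bind, 0.07 (adjusted p = 0.00663 from limma). Of 20 decapping and 5'-3' decay genes 0 were higher and 5 lower, among them Lsm3 (-0.54, adjusted p = 0.0397 from limma), Gigyf2 (-0.19) and the decapping enzyme Dcp2 (-0.14). The call of Lsm3 was lost in 9 of 19 alternatives, among them the fits without NA MP replicate 1, 2 or 3 and without WT MP replicate 3, 4 or 5, and its highest adjusted p was 0.107, with the replicate block. Of 16 tested exosome and 3'-5' decay genes 0 were higher and 4 lower, among them Exosc8 (-0.24), Dis3l (-0.21) and Wdr61 (-0.18). Over these 4 lists, 56 genes were tested, 5 were higher and 11 lower, so that 28.6% were called beside 34.3% of all tested genes.

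Of 18 tested genes for other RNA-binding regulators of decay, 2 were higher and 2 lower, 22.2% called beside 34.3% of all tested genes. Zc3h12a, an endonuclease that cuts inflammatory messenger RNA, had a log2 fold change of 0.49 (adjusted p = 0.000109 from limma), Celf1 -0.35 and Hnrnpdl 0.14. Of 15 tested genes for the p38 and MK2 kinases, phosphatases and 14-3-3 proteins that act on Zfp36 protein, 2 were higher and 3 lower, 33.3% called beside 34.3% of all tested genes. Dusp1, which switches p38 off and is also an immediate early gene, was at 1873 ± 688 (SD, n = 4) against 250.8 ± 99.3 (SD, n = 5), while Mapkapk2, the kinase that phosphorylates Zfp36 protein, had a log2 fold change of 0.10 (adjusted p = 0.00549 from limma), Ywhah -0.14 and Mapkapk3 -0.11. The change of Mapkapk2 was -0.01 after a correction for GC content and length.

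Of 27 textbook targets of Zfp36 proteins 15 were tested, 7 were higher, 5 of them more than 2-fold, and 2 were lower, where 16.9% of all tested genes were higher, 2.56% more than 2-fold, and 17.3% lower. Their median log2 fold change was 0.15, and 4 of the 27 were at 0 in every sample. Fos was at 4598 ± 1503 (SD, n = 4) in NA MPs against 617 ± 203 (SD, n = 5), which is 2.90 on the log2 scale, the chemokine genes Ccl4 and Ccl3 had 2.83 and 2.36, and Fos and Ier3 are immediate early genes as well.

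Across the table, the genes with and without the AU-rich nonamer had medians near 0. Of 887 tested genes with at least 1 copy in the longest 3' UTR, 15.7% were higher and 20.6% lower in NA MPs, with a median log2 fold change of -0.024, and of 10151 genes with 0 copies 17.4% were higher and 18% lower, with a median of -0.010. The 76 genes with 3 or more copies had a median of -0.039. Genes with the nonamer had longer 3' UTRs, with a median of 2377 bases against 1097, and among genes in the longest class of 3' UTRs, with classes of equal size by length (shortest, middle and longest), the medians were -0.035 with the nonamer (546 genes) and -0.043 without it (3131 genes). These medians describe genes of the same samples, and no test was made over genes.

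**Figure D5:**
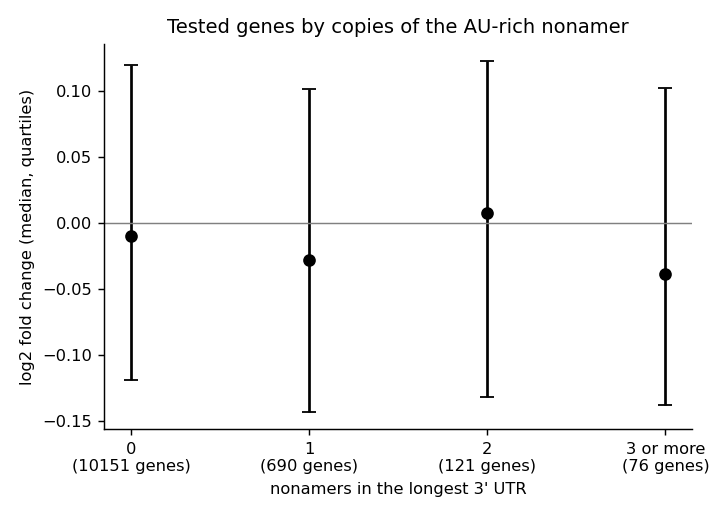
Median log2 fold change with lower and upper quartiles (y axis, NA MP minus WT MP) of tested genes by the number of TTATTTATT nonamers in the longest 3' UTR (x axis). The medians lie between -0.04 and 0.01 in all 4 classes, inside quartiles that reach from about -0.12 to 0.12 for the 10151 genes with 0 copies.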

How the data were processed

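Libraries (TruSeq RNA, NextSeq 500) came from 9 samples. The authors deposited a table of RSEM expected counts per gene. bcl2fastq, RSEM, DESeq2 and mm10 are named in the submitters' processing notes without versions, and annotation and strand setting are not given in the sources used here. The deposited values behave as a normalised signal and not as raw counts. Between 97.6% and 98.1% of a sample's values under 100 are whole multiples, within 0.05 reads, of a step that differs between samples (0.827 to 1.20), and totals differ little. Division by a size factor was inferred from this. No count model was used, and a fit planned for counts was replaced.

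In R 4.3.3, log2(value + 1) was compared with limma 3.58.1 (variance trend, robust) for genes at 10 or more in at least 4 samples, with Benjamini-Hochberg adjustment over 11987 genes and a threshold of 0.05. Fold changes are on that scale, which understates low genes. The fit was tested on simulated data. Single values took exact permutation tests over 126 choices. Levels per kilobase divide by the union of exons.

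The members and lists were chosen with earlier results of these data known. Named genes are the members, their 2 remaining relatives, the 3 nearest profiles of members beyond 0.58 (log2), up to 3 called genes with the largest change in a list, Cnot1, Cnot7, Cnot8, Pabpc1, Mapkapk2, Nup98 and Hoxa10, and not all of them are printed. Symbols matched 32916 of 37980 identifiers. Coordinates are GRCm38 (mm10). Within groups the chi-square per degree of freedom between samples was 1.20 to 2.71, and no library was counted as a duplicate. These values cannot tell whether samples came from a shared pool of cells. Zfp36, Zfp36l1, Zfp36l2 and Tob2 overlap exons of genes on the other strand that have no entry among the 37980 genes.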

Additional observations from a re-analysis of the deposited data

Results flagged for a closer look

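Of 50 groups of samples checked with Dixon's test, 2 held a sample far from the others, and chance flags about 1 in 20. The summed normalised count of the CCR4-NOT complex was 9188 in WT MP replicate 1, against 9458 to 9562 in the other WT MPs. Ly6a, the stem cell surface marker absent from the gate, was at 17.2 normalised counts in NA MP replicate 2, against 22.3 to 23.1 in the other NA MPs. No value of the 8 genes was far from its group by this test.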

How the results depend on the processing

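For the 8 genes, 150 of 152 values under 19 alternatives kept their direction and their side of the threshold. The exceptions were those of Btg3 without NA MP replicate 2 and without WT MP replicate 2. Leaving out each sample moved its log2 fold change between 0.24 and 0.40, and the number of the 8 genes called between 7 and 8. Zfp36 stayed between 2.18 and 2.56 and Btg2 between 1.45 and 1.92, with a highest adjusted p of 0.0334 (limma). Equal totals, no filter, at least 10 in every sample, no robust option and a threshold of 0.01 were planned, and pseudocounts of 0.5 and 5, no variance trend and GC and length correction were chosen after seeing the data. Cnot8, between -0.0297 and 0.0464 when each sample was left out, reversed with equal totals (-0.0039), without NA MP replicate 3 (-0.0297), without WT MP replicates 2 (-0.0084) and 4 (-0.0034), and with the GC and length correction (-0.0385), which also reversed Mapkapk2 (-0.0082); the cause was not tested. That correction called 1598 genes higher and 2750 lower, 36.8% higher, where 49.4% were higher without it. Same-numbered samples had correlations near 0 (r from -0.0204 to 0.0573), which do not settle whether the numbers mark a pairing or a batch. The mean of the 21 immediate early genes was highest in replicate 4 of both groups, at 2.14 in NA MPs and 0.36 in WT MPs. It was lowest in NA MP replicate 2 (1.09) and WT MP replicate 1 (-0.41). With a replicate block over 4 pairs 3664 genes were called beside 4107, with 7 of the 8 genes. RLE scaling and DESeq2 were not run, since the values are not counts. The low values of Btg3, Tob1 and Zfp36l1 limit what these depths can show.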
